A study of Homo sapiens with 22 samples.

Results

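The genes described here encode 6 components of the desmosome, namely DSP (desmoplakin), JUP (plakoglobin), PKP2 (plakophilin 2), PKP3 (plakophilin 3), DSC2 (desmocollin 2) and DSG2 (desmoglein 2). They were taken by symbol from a deposited table of 36859 genes, and all 6 were found in it. Of these 6 genes, 4 (DSP, JUP, PKP2 and DSC2) passed a filter on low values (10 or more normalized counts in 2 or more libraries), as did 14585 of the 36859 genes. PKP3 and DSG2 did not pass it, and their values are given library by library.

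Desmosomes are junctions that hold neighbouring epithelial cells together and tie the cell membrane to the intermediate filaments. Desmogleins and desmocollins are the transmembrane cadherins that bridge the gap between cells, plakoglobin and the plakophilins are armadillo-repeat proteins that bind their tails inside the cell, and desmoplakin links this plaque to keratin. In simple epithelia such as the renal tubule the usual cadherin pair is DSG2 and DSC2, and desmosomes are commonly dismantled when epithelial cells take on mesenchymal features.

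The cells were RPTEC, a human renal proximal tubule epithelial line immortalized with hTERT, profiled by bulk RNA-seq in 11 groups of 2 libraries each. The groups kept in 2% serum were wild-type cells (WT), WT exposed to TGF-β (10 ng/ml, 72 h), SETD2 KO1 and KO2, and a group labelled KO2 rescue. The untreated groups among these are listed at 0 h and the TGF-β group at 72 h. Whether the listed time is time in culture is not given, so time and TGF-β cannot be told apart. SETD2 encodes the methyltransferase that trimethylates histone H3 at lysine 36, and each KO is a single clone made with CRISPR. The groups kept in 10% serum were Rescue1 and Rescue2, which are single-cell clones of KO cells carrying a lentiviral 3×FLAG SETD2, and WT cells transduced in bulk with an empty eGFP vector, SOX2, OCT2 or PRRX1. The labels do not name the parent clone of Rescue1 and Rescue2. Serum therefore differs between the KO clones and these rescue clones, and between WT and every transduced WT group, so serum and genotype or vector cannot be told apart there. In bulk RNA, fewer cells expressing a gene and less RNA per cell cannot be told apart either.

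Library depth was about 7860000 to 18406000 reads, recovered from the spacing of the low values, so that 1 read was worth 0.809 to 1.54 normalized counts. SETD2, the targeted gene, gave 1852 and 2061 normalized counts in WT, 1046 to 1130 in KO1, 1050 to 1052 in KO2, and 9764 to 10445 in Rescue1 and Rescue2. In the group labelled KO2 rescue SETD2 stood at 820 to 834 normalized counts, below KO2 by 0.35 on the log2 scale (adjusted p = 0.00382), which goes against its label. Nothing in the labels says that the 2 libraries of a group came from separate cultures, so the p-values measure the spread between these libraries. Of the 11 groups, the WT duplicates differed most, by a median absolute log2 difference of 0.181 over 2347 highly expressed genes. In the other groups it ran from 0.0644 (WT SOX2) to 0.162 (KO1). A value of exactly 0 may be a failed estimate, since HPRT1, a gene used by every cell, is listed at 0 in 6 libraries, and 63 of 6265 genes with a median of at least 200 normalized counts are listed at 0 in at least 1 library. Renal tubule markers summed to between 3653 and 9280 normalized counts in every library, with 7 of 9 past the filter. PAX8 was the largest part of this sum in each library. The proximal tubule genes LRP2 and SLC34A1 gave at most 2.29 and 8.47 normalized counts. Of the 3 keratinocyte markers, KRT5 and KRT14 were listed at 0 in all 22 libraries. TP63, the only 1 of them past the filter, gave 12.8 and 1.79 normalized counts in WT and 64.8 and 74.0 after TGF-β. TP63 rose after TGF-β, by 3.50 on the log2 scale, and reached at most 17.1 normalized counts in any other group.

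The positions are those of GENCODE release 44 on GRCh38, the build of the reference transcripts. DSP (ENSG00000096696) spans chr6:7541338-7586714 on the plus strand, JUP (ENSG00000173801) chr17:41754604-41786931 on the minus strand, PKP2 (ENSG00000057294) chr12:32790745-32896798 on the minus strand, and PKP3 (ENSG00000184363) chr11:392614-404908 on the plus strand. DSC2 (ENSG00000134755, chr18:31058840-31102522, minus strand) and DSG2 (ENSG00000046604, chr18:31498177-31549008, plus strand) both lie in the desmosomal cadherin cluster. The 250 bases before the outermost annotated start of DSP, JUP and DSC2 are shown because ZEB1, ZEB2 and SNAI2, whose values are given further on, are repressors known to read the E-box CAGGTG. Capitals mark CAGGTG or CACCTG, which is the same site on the other strand, and each sequence is written 5′ to 3′ on the strand of its gene.

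DSP, chr6:7541088-7541337, plus strand: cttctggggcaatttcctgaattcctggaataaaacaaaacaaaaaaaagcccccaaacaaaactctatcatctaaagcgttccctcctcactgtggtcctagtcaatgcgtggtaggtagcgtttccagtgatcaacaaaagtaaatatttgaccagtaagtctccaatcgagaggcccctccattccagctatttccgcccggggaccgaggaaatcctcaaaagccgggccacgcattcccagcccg
JUP, chr17:41786932-41787181, minus strand: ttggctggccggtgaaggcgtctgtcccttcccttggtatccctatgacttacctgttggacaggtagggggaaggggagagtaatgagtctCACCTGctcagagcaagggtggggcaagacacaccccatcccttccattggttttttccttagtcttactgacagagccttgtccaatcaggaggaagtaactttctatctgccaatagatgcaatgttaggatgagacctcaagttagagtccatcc
DSC2, chr18:31102523-31102772, minus strand: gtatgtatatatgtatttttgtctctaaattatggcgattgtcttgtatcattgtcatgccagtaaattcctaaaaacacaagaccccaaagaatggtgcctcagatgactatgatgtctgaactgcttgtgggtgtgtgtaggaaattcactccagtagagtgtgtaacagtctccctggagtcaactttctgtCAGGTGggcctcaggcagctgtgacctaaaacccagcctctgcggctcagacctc

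The DSP window held no such site, whereas the JUP window held 1, at 158 to 153 bases before the start, and the DSC2 window held 1, at 55 to 50 bases before it. The corresponding DSG2 window held 2. Among the windows of the same length of 20033 protein-coding genes, 18.39% held at least 1 such site and 2.571% held 2 or more. The AP-1 letters TGANTCA were found in 5.456% of the windows and in none of those of DSP, JUP, DSC2 and DSG2. All 250 bases of the DSP window lie within an exon of DSP-AS1, a noncoding gene on the opposite strand. Windows of PKP2 and PKP3 are not shown. These matches describe letters only, and no binding was measured.

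Per kilobase of the canonical transcript, JUP was the most abundant of the 6 genes in WT cells, at 1071 ± 10.6 normalized counts per kb (SD, n = 2) or percentile 95.4 of the genes tested. DSP followed at 151 ± 33.1 and PKP2 at 122 ± 17.3 normalized counts per kb, at percentiles 72.0 and 67.8, and these neighbours in the order did not differ beyond their spread. The 2 cadherins and PKP3 were near the bottom, with WT means of 1.43 for DSC2, 1.10 for DSG2 and 0.904 for PKP3 in normalized counts per kb, below percentile 10 of the genes tested. On this scale WT RPTEC thus held more transcripts of the plaque genes JUP, DSP and PKP2 than of the cadherins DSC2 and DSG2. The plaque gene PKP3 was as low as the cadherins. The plot of normalized counts by library shows each gene on its own axis.

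**Figure D1:**
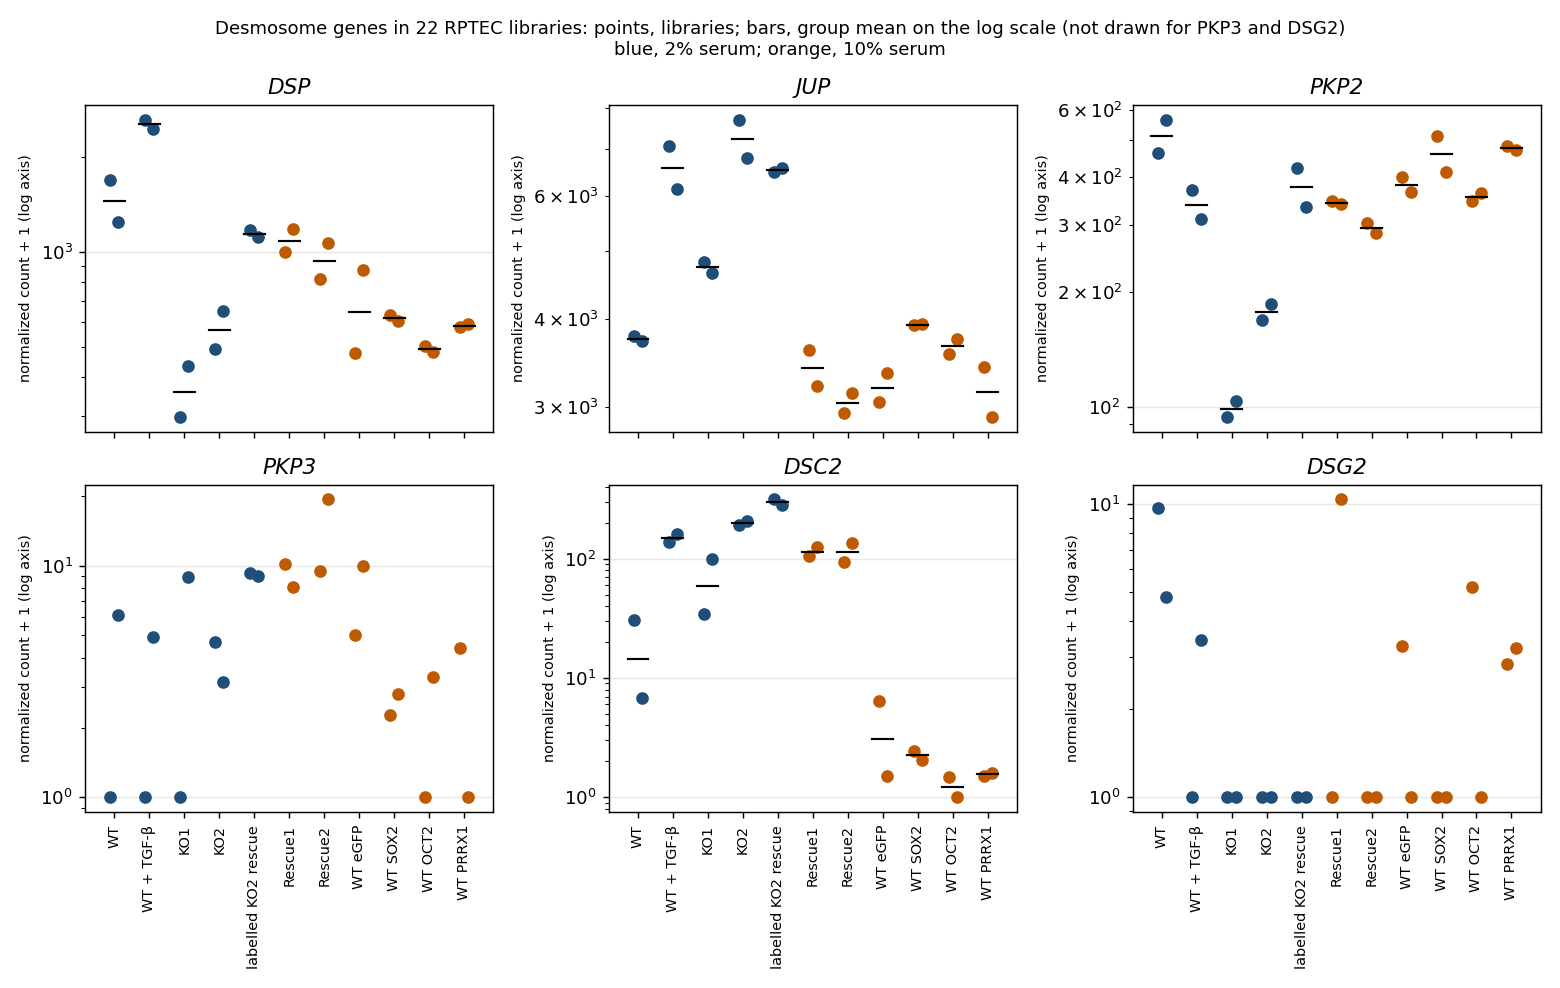
Normalized counts plus 1 of the 6 desmosome genes (log vertical axis, a separate scale for each gene) in the 11 groups, with 1 point per library and a bar at the group mean for the 4 genes that passed the filter; blue groups were kept in 2% serum and orange groups in 10% serum. DSP and PKP2 are lowest in KO1, at 297 and 92.8 normalized counts in the lowest library, JUP is highest in KO2, and DSC2 is at or below 5.42 normalized counts in all 8 libraries of transduced WT cells.

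TGF-β treatment was compared with WT in the same serum, where the listed time and TGF-β cannot be told apart. The cytoplasmic linkers DSP and JUP and the cadherin DSC2 rose and PKP2 fell, so that all 4 tested genes passed an adjusted p of 0.05 from limma, where 17.7% of all tested genes passed. DSP, the link to keratin, gave 1693 and 1239 normalized counts in WT and 2630 and 2457 after TGF-β. JUP, which also serves at adherens junctions, gave 3779 and 3727 in WT and 7064 and 6131 after TGF-β. Both genes were higher in each treated library than in each WT library, as PKP2 was lower and DSC2 higher, where 54.6% of all tested genes did not overlap in either direction. The log2 changes were 0.81 ± 0.25 (SE, adjusted p = 0.0348) for DSP and 0.81 ± 0.09 (SE, adjusted p = 2.39e-05) for JUP. PKP2, a plaque protein that recruits desmoplakin, gave 462 and 566 in WT and 368 and 310 after TGF-β, a log2 change of -0.60 ± 0.16 (SE, adjusted p = 0.017). DSC2 gave 29.4 and 5.85 in WT and 137 and 161 after TGF-β, a log2 change of 3.37 ± 0.74 (SE, adjusted p = 0.00509) on the log2(normalized count + 1) scale, which understates changes of low genes. It was the only 1 of the 4 past a 2-fold change as well, a share to be read beside 7.84% of all tested genes.

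These calls rested on few libraries, and the 2 WT libraries were unlike. For DSP, PKP2 and DSC2 the first WT library lay nearer to the TGF-β libraries than the second did. So it did for COL1A1 (11919 and 532 in WT, 46598 and 45007 after TGF-β) and KRT7 (787 and 78.0, then 1368 and 1933). CDH2 and EPCAM went the other way, and the cause was not tested. With only the WT and TGF-β libraries in the fit, none of the 4 genes passed (adjusted p = 0.0772 for JUP, 0.147 for DSP, 0.174 for DSC2 and 0.186 for PKP2). Without the second WT library 1 of the 4 genes passed, JUP, and the log2 change of DSC2 was 2.30 (adjusted p = 0.0841). The DSP call was also lost without either TGF-β library (adjusted p = 0.16 and 0.10), and the PKP2 call without the second TGF-β library (adjusted p = 0.147).

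Both SETD2 KO clones were compared with WT to see what loss of SETD2 does to the same genes. DSP and PKP2 fell in both clones, DSC2 rose in both, and JUP rose in KO2. All 4 tested genes passed in each comparison, where 39.8% of all tested genes passed in KO1 and 28.9% in KO2. The KO1, KO2 and TGF-β comparisons share the same 2 WT libraries.

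DSP gave 297 and 432 normalized counts in KO1 and 491 and 648 in KO2, against 1239 or more in both WT libraries. On the log2 scale it changed by -2.01 ± 0.25 (SE, adjusted p = 1.15e-05) in KO1 and -1.36 ± 0.25 (SE, adjusted p = 0.000649) in KO2. PKP2 gave 92.8 and 103 in KO1 and 168 and 185 in KO2, below both WT libraries. This was a log2 change of -2.38 ± 0.16 (SE, adjusted p = 1.72e-08) in KO1 and -1.53 ± 0.16 (SE, adjusted p = 3.46e-06) in KO2. These are losses of 4.04-fold and 2.57-fold for DSP and of 5.19-fold and 2.89-fold for PKP2, and no library of a KO clone reached the lowest WT library for either gene. All 4 tested genes had libraries that did not overlap between a clone and WT, as did 61.4% of all tested genes for KO1 and 61.5% for KO2.

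JUP gave 4827 and 4656 normalized counts in KO1 and 7704 and 6798 in KO2, above both WT libraries. In KO2 its log2 change was 0.95 ± 0.09 (SE, adjusted p = 1.71e-06), and it stayed above 0 under each setting tried. In KO1 its log2 change was 0.34 ± 0.09 (SE, adjusted p = 0.00906), but it turned to -0.07 when all libraries were given equal totals, a scaling that moved the median change of all tested genes by -0.39, and it was 0.14 (adjusted p = 0.267) after quantile normalization. The direction of JUP in KO1 therefore depended on the scaling, whereas DSP and PKP2 kept theirs.

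DSC2 gave 33.4 and 99.1 normalized counts in KO1 and 191 and 205 in KO2, again above both WT libraries. Its log2 change was 2.02 ± 0.74 (SE, adjusted p = 0.0424) in KO1 and 3.79 ± 0.74 (SE, adjusted p = 0.00119) in KO2. The KO1 call was lost when either the second WT library (log2 change 0.95, adjusted p = 0.40) or the second KO1 library (1.25, adjusted p = 0.30) was left out, and the adjusted p was between 0.0503 and 0.055 when any 1 of 14 libraries of other groups was left out of the shared fit. With only a clone and WT in the fit, DSC2 passed in neither clone (adjusted p = 0.302 for KO1 and 0.0718 for KO2), and JUP did not pass for KO1 (adjusted p = 0.076).

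DSG2, the cadherin partner of DSC2, gave 8.67 and 3.81 normalized counts in WT and was listed at 0 in all 4 KO libraries. Over the 22 libraries it was listed at 0 in 14 and reached at most 9.37 normalized counts, in the second Rescue1 library, while the first Rescue1 library was listed at 0. PKP3, a plakophilin of broad distribution in epithelia, was listed at 0 in 1 library each of WT, TGF-β-treated WT and KO1, and gave 5.09, 3.93 and 7.90 normalized counts in the other library of these groups. Its highest value, 18.3 normalized counts, was in the second Rescue2 library. Tested without the filter, DSG2 had an adjusted p of 0.0452 in KO1, which passed, and of 0.0572 in KO2 although its KO values were alike, and PKP3 did not pass in these comparisons. For PKP3 a difference between WT and the KO clones was not detectable at this depth.

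**Figure D2:**
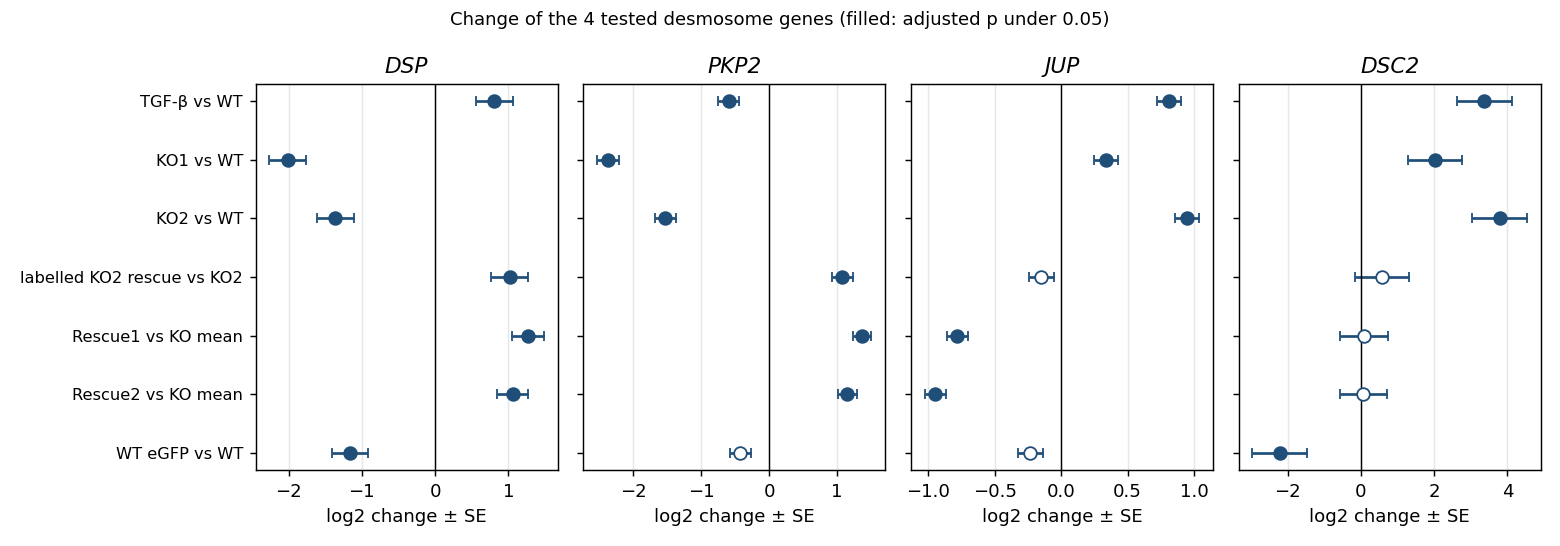
The log2 change (horizontal axis, on the log2(normalized count + 1) scale, bars ± SE) of DSP, PKP2, JUP and DSC2 in 7 comparisons, with filled points for adjusted p under 0.05 and a separate horizontal scale for each gene. DSP and PKP2 lie left of 0 in both KO clones and right of 0 in Rescue1, Rescue2 and the group labelled KO2 rescue. SETD2 in that last group was below KO2. JUP lies left of 0 in Rescue1 and Rescue2, and DSC2 lies near 0 there, at 0.09 and 0.06, against the mean of the KO clones.

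DSP and JUP, whose proteins sit side by side in the plaque, thus had separate courses in the KO clones. The ratio of 2 genes within a library does not depend on how libraries were scaled. The ratio of DSP to JUP was 0.448 and 0.332 in WT and 0.372 and 0.401 after TGF-β, but 0.0615 and 0.0927 in KO1 and 0.0637 and 0.0953 in KO2. The ratio of PKP2 to JUP was 0.122 and 0.152 in WT and 0.0521 and 0.0505 after TGF-β. In the KO clones it was 0.0192 and 0.0221 (KO1) and 0.0218 and 0.0272 (KO2). The KO clones had the lowest values of both ratios and did not overlap any other group. After TGF-β the ratio of DSP to JUP overlapped that of WT, and the ratio of PKP2 to JUP lay below it.

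**Figure D3:**
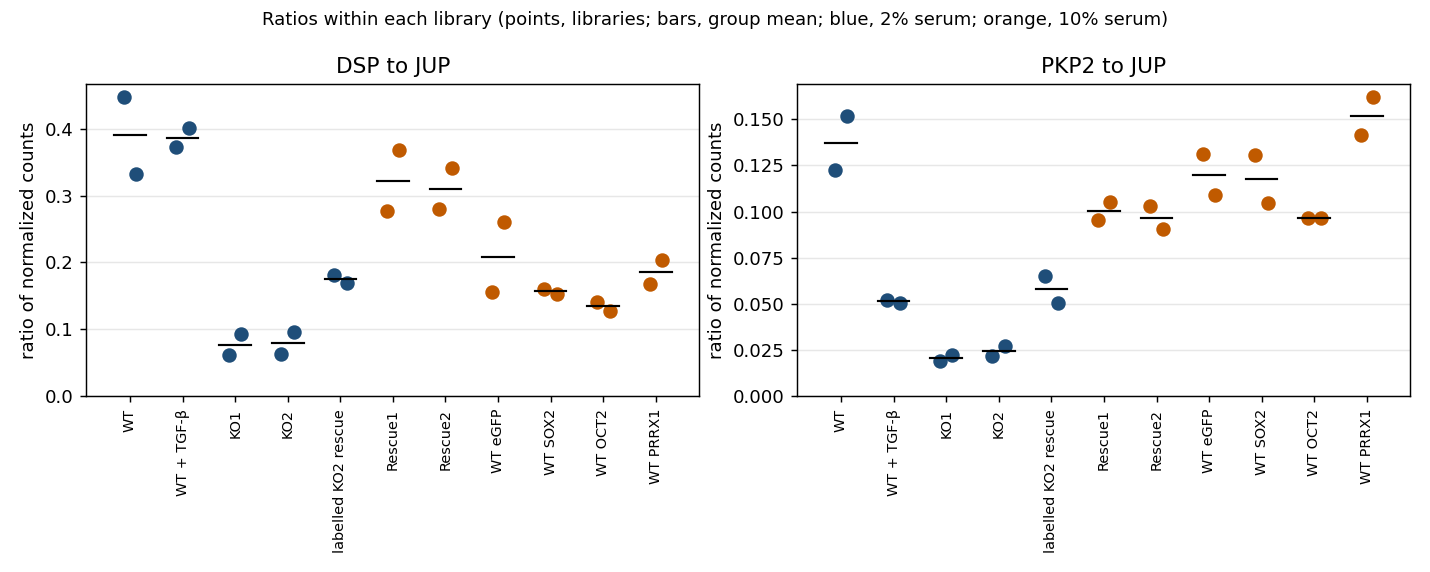
Ratio of normalized counts of DSP to JUP (left) and of PKP2 to JUP (right) within each library, with 1 point per library, a bar at the group mean, and vertical axes from 0; blue groups were kept in 2% serum and orange groups in 10% serum. The 4 KO libraries lie between 0.0615 and 0.0953 for DSP to JUP and between 0.0192 and 0.0272 for PKP2 to JUP, below every other library.

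The mean of the KO clones was set directly against TGF-β-treated WT, which also differed in listed time (0 h against 72 h). DSP and PKP2 were lower in the KO clones by this test, with log2 differences of -2.50 ± 0.21 (SE, adjusted p = 2.9e-07) and -1.36 ± 0.14 (SE, adjusted p = 1.79e-06), and both genes were lower in all 4 KO libraries than in both TGF-β libraries. In this comparison 36.3% of all tested genes passed. JUP (-0.17 ± 0.08, adjusted p = 0.12) and DSC2 (-0.47 ± 0.64, adjusted p = 0.619) did not pass, and their libraries overlapped. JUP passed at -0.25 with equal library totals (adjusted p = 0.0259) and at -0.30 after quantile normalization (adjusted p = 0.0112).

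The KO clones also differed from each other. JUP was lower in KO1 than in KO2 by 0.61 ± 0.09 on the log2 scale (SE, adjusted p = 0.000375), and PKP2 by 0.85 ± 0.16 (SE, adjusted p = 0.00206), in a comparison in which 16.0% of all tested genes passed. DSP (-0.65 ± 0.25, adjusted p = 0.0923) and DSC2 (-1.76 ± 0.74, adjusted p = 0.128) did not pass, although both KO1 libraries lay below both KO2 libraries for each gene, as held in either direction for 50.7% of all tested genes. DSP passed with equal library totals (-0.84, adjusted p = 0.0294), and also without either WT eGFP library (adjusted p = 0.037 in each case). With only the 4 KO libraries in the fit, JUP (adjusted p = 0.0834) and PKP2 (adjusted p = 0.192) no longer passed.

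Re-expression of SETD2 was examined in Rescue1 and Rescue2, each against the mean of the KO clones. DSP and PKP2 rose, JUP fell, and DSC2 did not pass, so that 3 of 4 tested genes passed in each clone, where 38.6% of all tested genes passed for Rescue1 and 38.4% for Rescue2. DSP gave 999 and 1180 normalized counts in Rescue1 and 822 and 1070 in Rescue2, above all 4 KO libraries. Its log2 change was 1.27 ± 0.21 (SE, adjusted p = 0.00026) in Rescue1 and 1.06 ± 0.21 (SE, adjusted p = 0.00117) in Rescue2. PKP2 gave 345 and 338 in Rescue1 and 302 and 284 in Rescue2, again above all 4 KO libraries. The log2 change of PKP2 was 1.37 ± 0.14 (SE, adjusted p = 1.62e-06) in Rescue1 and 1.15 ± 0.14 (SE, adjusted p = 9.58e-06) in Rescue2.

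JUP gave 3609 and 3209 normalized counts in Rescue1 and 2940 and 3139 in Rescue2, below all 4 KO libraries and both WT libraries. The log2 change of JUP was -0.78 ± 0.08 (SE, adjusted p = 1.89e-06) in Rescue1 and -0.95 ± 0.08 (SE, adjusted p = 2.44e-07) in Rescue2. DSC2 gave 104 and 124 in Rescue1 and 92.4 and 136 in Rescue2, inside the range of the KO libraries and above both WT libraries. These values lay below both KO2 libraries (191 and 205) and around or above those of KO1 (33.4 and 99.1), so the KO mean joins unlike levels. Its log2 changes of 0.09 ± 0.64 and 0.06 ± 0.64 (SE, adjusted p = 0.932 and 0.958) leave room for a change of either sign. With equal library totals, which moved the median of all tested genes by 0.35 for Rescue1 and 0.40 for Rescue2, the directions of DSP, PKP2 and JUP were kept.

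Rescue1 and Rescue2 were then set against WT eGFP cells, which were kept in the same serum and also carried a vector. DSC2 was 5.42 and 0.501 normalized counts in WT eGFP, and its log2 difference was 5.21 ± 0.74 (SE, adjusted p = 0.000114) for Rescue1 and 5.18 ± 0.74 (SE, adjusted p = 0.000126) for Rescue2. DSC2 passed in both comparisons, where 26.2% of all tested genes passed for Rescue1 and 24.0% for Rescue2. DSP passed for Rescue1 (0.75 ± 0.25, adjusted p = 0.0377) and not for Rescue2 (0.54 ± 0.25, adjusted p = 0.139). These DSP results turned on the 2 WT eGFP libraries, which stood at 477 and 872 normalized counts. Without the first of them the Rescue1 difference was 0.32 (adjusted p = 0.441), and without the second the Rescue2 difference was 0.97 (adjusted p = 0.011). The Rescue1 call was also lost without either Rescue1 library (adjusted p = 0.0695 and 0.184). With only the 2 groups of each comparison in the fit, none of these calls was kept (adjusted p = 0.258 for DSP in Rescue1, 0.052 for DSC2 in Rescue1 and 0.0513 for DSC2 in Rescue2). JUP and PKP2 did not pass in either clone, with log2 differences from -0.38 to 0.09. Between Rescue1 and Rescue2 limma passed 0 of the 4 tested genes, none of them at an unadjusted p under 0.05 either, where 1.52% of all tested genes passed.

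The group labelled KO2 rescue was compared with KO2 in the same serum, with the reservation that its SETD2 level was below that of KO2. DSP gave 1174 and 1112 normalized counts, above KO2 by 1.02 ± 0.25 on the log2 scale (SE, adjusted p = 0.016). PKP2 gave 422 and 333, above KO2 by 1.08 ± 0.16 (SE, adjusted p = 0.000345). These were 2 of the 4 tested genes, where 10.3% of all tested genes passed. JUP gave 6493 and 6571 and DSC2 gave 313 and 279, and neither passed, at log2 changes of -0.15 ± 0.09 (SE, adjusted p = 0.405) and 0.57 ± 0.74 (SE, adjusted p = 0.754). The DSP call was lost without the first KO2 library (0.82, adjusted p = 0.152) or without either library of the group itself (adjusted p = 0.0961 and 0.0731), and with only these 2 groups in the fit neither DSP (adjusted p = 0.0617) nor PKP2 (adjusted p = 0.0602) passed.

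Against WT, the same group was higher in JUP by 0.80 ± 0.09 on the log2 scale (SE, adjusted p = 1.5e-05) and in DSC2 by 4.36 ± 0.74 (SE, adjusted p = 0.000513), where 23.2% of all tested genes passed. DSP (-0.34 ± 0.25, adjusted p = 0.386) and PKP2 (-0.45 ± 0.16, adjusted p = 0.058) did not pass. PKP2 passed without the first WT library (-0.59, adjusted p = 0.0404) or without the first library of the group (-0.62, adjusted p = 0.0374). With only these 2 groups in the fit DSC2 did not pass (adjusted p = 0.0656). DSC2 had its highest values of all 22 libraries in this group.

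WT eGFP cells were compared with WT, a contrast in which the vector and the change from 2% to 10% serum cannot be told apart. DSP was lower by 1.17 ± 0.25 on the log2 scale (SE, adjusted p = 0.00267), and DSC2 was lower, at 5.42 and 0.501 against 29.4 and 5.85 normalized counts (log2 change -2.22 ± 0.74, SE, adjusted p = 0.0395). These were 2 of the 4 tested genes, where 26.6% of all tested genes passed. JUP (-0.23 ± 0.09, adjusted p = 0.0805) and PKP2 (-0.42 ± 0.16, adjusted p = 0.0655) did not pass. The DSP call was lost without the first WT eGFP library (-0.73, adjusted p = 0.0503). The DSC2 call was lost without the first WT library (-1.14, adjusted p = 0.361), without the second WT eGFP library (-1.17, adjusted p = 0.343), and, at adjusted p of 0.0504 to 0.052, without any 1 of 6 libraries of other groups. PKP2 passed without the first WT library (-0.57, adjusted p = 0.0448). With only WT eGFP and WT in the fit, DSP (adjusted p = 0.165) and DSC2 (adjusted p = 0.32) did not pass.

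SOX2, OCT2 and PRRX1 are transcription factors that were expressed from lentivirus in WT cells and compared with the eGFP vector. Of the 4 tested genes, limma passed 0 for each factor, and at an unadjusted p under 0.05 it found 1 for SOX2 (JUP, log2 change 0.30 ± 0.09, adjusted p = 0.521), 0 for OCT2 and 0 for PRRX1. Over all tested genes 0.0206% passed for SOX2, 0.0411% for OCT2 and 0.048% for PRRX1. DSP gave 627 and 604 normalized counts with SOX2, 502 and 478 with OCT2, and 575 and 589 with PRRX1. PKP2 gave 512 and 411 with SOX2, 345 and 362 with OCT2, and 484 and 470 with PRRX1. DSC2 was at or below 1.47 normalized counts in these 6 libraries, 1 of which was listed at 0.

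**Figure D4:**
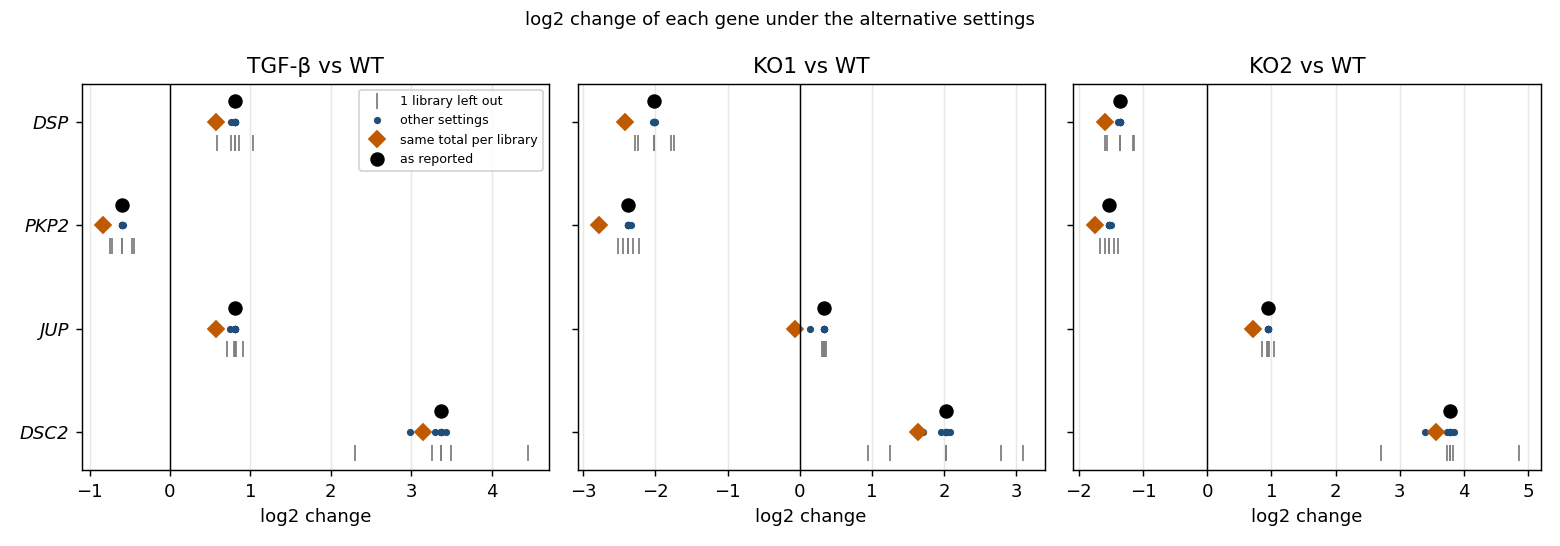
The log2 change (horizontal axis, a separate scale for each comparison) of DSP, PKP2, JUP and DSC2 for TGF-β, KO1 and KO2 against WT, as reported (black), with 1 library left out (grey ticks), with equal library totals (orange) and under the other settings except the deposited log2 scale (blue). JUP in KO1 is the 1 gene that crosses 0, at -0.07 with equal library totals, and DSC2 has the widest spread.

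The order of the levels across groups differed between the genes. For DSP TGF-β-treated WT was first at 2543 ± 122 normalized counts (SD, n = 2), followed by WT at 1466 ± 321. Rescue1, Rescue2 and the group labelled KO2 rescue came next at 946 to 1143. The transduced WT groups lay at 490 to 675, with KO2 among them at 569 ± 111, and KO1 was last at 364 ± 95.4. For PKP2 WT was first at 514 ± 73.3, followed by WT PRRX1 at 477 ± 9.96 and WT SOX2 at 462 ± 71.8, which overlap WT in range, and KO2 at 177 ± 12.1 and KO1 at 97.8 ± 7.06 were last. For JUP KO2 at 7251 ± 641, TGF-β-treated WT at 6597 ± 660 and the group labelled KO2 rescue at 6532 ± 55.4 were first. TGF-β-treated WT overlapped both of the others in range, while both KO2 libraries lay above the group labelled KO2 rescue, and all groups in 10% serum lay between 3039 and 3928. For DSC2 the group labelled KO2 rescue was first at 296 ± 24.3, and KO2 at 198 ± 10.1 and TGF-β-treated WT at 149 ± 17.0 came next.

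The genes whose 11 group means resembled each member most, on the log2 scale and among 9427 genes with a mean of at least 50 normalized counts, are given as a description. All groups share 1 normalization, and no p is given. For DSP they were FRMD6 (r = 0.97) and PDGFB (r = 0.95). For PKP2 they were UBAP2 (r = 0.98) and FGD4 (r = 0.96). For JUP they were PLPP5 and SERPINH1 (r = 0.94 each), and for DSC2 SLC35C1 (r = 0.98) and RTCA (r = 0.97). Over the 22 libraries both leading genes remained the same for DSP and JUP, and 1 of 2 for PKP2 and DSC2. No desmosome gene was among the leading genes of another, and Pearson correlations between the group means of the 4 genes ran from -0.45 (PKP2 and DSC2) to 0.62 (JUP and DSC2).

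Of 8 further desmosome genes in the table, 4 passed the filter, and DSG3 and PERP are not analysed here. Among the 4, PKP4 and EVPL fell in both KO clones and none rose, where 39.8% of all tested genes passed in KO1 and 28.9% in KO2. The 4 genes had a median log2 change of -1.78 in KO1 and -1.53 in KO2, beside a median over all tested genes of 0 and 0.003. PKP4, an armadillo-repeat protein of cell junctions, gave 2240 and 2469 normalized counts in WT, 1468 and 783 in KO1, and 1143 and 1150 in KO2. The KO1 clone differed from WT by -1.13 (adjusted p = 0.00189) and the KO2 clone by -1.04 (adjusted p = 0.00491) on the log2 scale, and it was higher than the KO mean in Rescue1 (0.73, adjusted p = 0.0144) and Rescue2 (0.62, adjusted p = 0.0321). PKP4 thus moved in the same directions as DSP and PKP2 in these 4 comparisons. Its libraries overlapped, since the first Rescue2 library, at 1402 normalized counts, lay below the first KO1 library. In the group labelled KO2 rescue, where DSP and PKP2 were higher than in KO2, PKP4 gave 1148 and 1142, close to KO2.

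EVPL, which encodes the plakin envoplakin, gave 483 and 651 normalized counts in WT, 99.1 and 112 in KO1, and 162 and 118 in KO2, changes of -2.40 for KO1 (adjusted p = 2.44e-05) and -2.02 for KO2 (adjusted p = 0.000191) on the log2 scale. It was at 6.94 and 10.3 in Rescue1 and 1.73 and 5.51 in Rescue2, below the KO mean by a log2 change of -3.68 in Rescue1 (adjusted p = 7.73e-08) and -4.85 in Rescue2 (adjusted p = 3.82e-09). EVPL was therefore lower still in the rescue clones, where DSP, its relative among the plakins, was higher. DSC3, a desmocollin of stratified epithelia, was at most 43.2 normalized counts outside 2 groups, at 704 and 653 in Rescue1 and 102 and 161 in the group labelled KO2 rescue. PKP1 did not pass in TGF-β, KO1 or KO2 against WT. It reached 10 normalized counts only in the 2 TGF-β libraries and so entered the tested genes through that group. The direction of its KO mean against TGF-β was thereby fixed, and that comparison is not interpreted. It gave 17.0 and 20.5 normalized counts after TGF-β against 5.19 and 2.43 in WT, while all 4 KO libraries were listed at 0. Sums of endothelial and immune markers were at most 104 normalized counts in any library, with the highest in Rescue1.

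Among 7 adherens junction genes, which share JUP with the desmosome, 3 rose and 0 fell after TGF-β, 3 fell and 0 rose in KO1, and 3 fell and 1 rose in KO2. These counts stand beside 17.7%, 39.8% and 28.9% of all tested genes that passed, so that 3 of 7 in KO1 is near the share over all genes. Their median log2 change was 0.04 after TGF-β, -1.01 in KO1 and 0.14 in KO2. CTNND1, which encodes p120-catenin, rose with TGF-β by 0.48 on the log2 scale (adjusted p = 3.39e-05), and it fell in both clones, with changes of -1.01 (KO1, adjusted p = 2.42e-09) and -0.70 (KO2, adjusted p = 2.58e-07). CTNNB1, β-catenin and the closest relative of JUP, rose by 0.47 with TGF-β (adjusted p = 0.00406) and in the KO2 clone (0.35, adjusted p = 0.016). CDH3, P-cadherin, was at 456 and 484 normalized counts in WT, at most 16.6 in the KO libraries and at most 15.8 in WT eGFP. CDH1, E-cadherin, gave 25.5 and 47.5 normalized counts in WT and at most 0.776 in the KO libraries, 3 of which were listed at 0. CDH2 is not interpreted, since its duplicates differed widely, at 529 and 0 normalized counts in the group labelled KO2 rescue.

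Of 4 keratins of simple epithelia, which desmoplakin anchors, 3 fell in KO1 and 3 in KO2, and none rose, where 39.8% and 28.9% of all tested genes passed in either direction. Their median log2 change was -1.70 in KO1 and -0.86 in KO2. KRT8 gave 15741 and 16325 normalized counts in WT, 4558 and 3952 in KO1, and 10534 and 9784 in KO2, changes of -1.92 (KO1, adjusted p = 1.14e-11) and -0.66 (KO2, adjusted p = 2.7e-06) on the log2 scale. It was higher than the KO mean in Rescue1 (1.92, adjusted p = 3.84e-12) and Rescue2 (1.77, adjusted p = 7.37e-12). KRT19 had the same directions in these 4 comparisons. After TGF-β, KRT8 did not pass (0.01, adjusted p = 0.945), KRT19 fell (-0.60, adjusted p = 0.000159) and KRT7 rose (2.71, adjusted p = 0.0157), with KRT7 at 787 and 78.0 in the 2 WT libraries. KRT18 did not pass in any of these comparisons and has near-identical pseudogenes that can share its reads.

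Regulators of junction genes were also measured, and their part in the desmosome values was not tested. The filter was passed by 5 of 7 such genes, of which 2 rose and 1 fell after TGF-β, 1 rose and 1 fell in KO1, and 2 rose and 1 fell in KO2. Over all tested genes 17.7%, 39.8% and 28.9% passed in these comparisons, so that the count in KO1 is at the share over all genes. OVOL2 reached 10 normalized counts only in the 2 WT libraries, so as a tested gene it could only be lower than WT. The counts of regulators that fell are therefore not read as a result. ZEB2 gave 317 and 330 normalized counts in WT and rose in KO1 (2.65, adjusted p = 2.37e-10), in KO2 (2.80, adjusted p = 2.52e-10) and in WT eGFP (2.42, adjusted p = 2.94e-09), and DSP was lower than in WT in all 3. In the group labelled KO2 rescue ZEB2 gave 1528 and 1563, and DSP did not pass against WT (-0.34, limma adjusted p = 0.386). ZEB2 gave 740 to 1090 in Rescue1 and Rescue2, also above both WT libraries. After TGF-β, where DSP was higher, ZEB2 rose by 0.37 (adjusted p = 0.0473) and ZEB1 by 0.80 (adjusted p = 1.75e-05). SNAI2 was at 15.3 to 29.5 normalized counts in the KO and WT libraries and at 337 to 496 in the transduced WT groups. OVOL2, an epithelial repressor of ZEB genes, gave 14.6 and 15.5 normalized counts in WT and was listed at 0 in all 4 KO libraries. It was also listed at 0 in every library of the group labelled KO2 rescue, Rescue1, Rescue2 and WT eGFP. After TGF-β it gave 4.04 and 0, and in the other transduced WT groups at most 1.02. SNAI1 is not analysed here.

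Markers of another cell type also differed between groups. The summed level of 4 fibroblast markers (DCN, LUM, COL1A1, PDGFRB), all past the filter, was 822 to 12420 normalized counts in WT, 46231 to 47700 after TGF-β, 223222 to 236214 in KO1, 98876 to 102477 in KO2, 38421 to 40955 in the group labelled KO2 rescue, and 795 to 1501 in Rescue1 and Rescue2. The KO sums were mostly DCN, at 234809 and 221606 normalized counts in KO1, and the TGF-β sums mostly COL1A1, at 46598 and 45007. COL1A1 in KO1, at 1042 and 815, lay between the 2 WT libraries, which differed widely, at 11919 and 532. DCN and LUM rose in both KO clones, and COL1A1 and PDGFRB did not pass there. The summed level of 5 epithelial markers (KRT8, KRT18, EPCAM, CDH1, CDH6) was 19546 to 19609 in WT, 19403 to 19995 after TGF-β, 4535 to 5387 in KO1, and 11255 to 11940 in KO2. It was 23165 to 24143 in the group labelled KO2 rescue, 24128 to 27845 in Rescue1 and Rescue2, and 11131 to 11521 in WT eGFP, close to KO2. All these sums were mostly KRT8. EPCAM gave 3050 and 2764 normalized counts in WT, 1605 and 1722 after TGF-β, and 438 to 691 in Rescue1 and Rescue2. CDH1 gave 25.5 and 47.5 in WT and at most 0.778 in Rescue1 and Rescue2. CDH6 went the other way, at 503 and 150 in WT, 1546 and 1792 after TGF-β, and 1002 to 2061 in Rescue1 and Rescue2. DSP and PKP2 were lowest in KO1, where DCN was highest, and the part of cell composition in these values was not tested.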

How the data were processed

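Messenger RNA of hTERT-immortalized RPTEC was sequenced as paired 150-base reads from stranded libraries. Per the study's methods and processing notes, the authors quantified transcripts of Ensembl release 94 (GRCh38) with Salmon 1.9.0 and normalized them with DESeq2 1.26.0. They deposited log2 values for 22 libraries, whose transformation is not given in the sources used here. All 22 columns share a lowest value of 11.3188, as a variance-stabilizing transformation gives for a count of 0. Inverting that transformation returned normalized counts, after which low values lay on multiples of a library-specific step taken as 1 read. Whether counting used strand is not given in the sources used here, so reads of DSP and DSP-AS1 may not be separated.

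Every comparison used limma 3.58.1 (R 4.3.3) with a variance trend on log2(normalized count + 1), 1 mean per group over all 22 libraries, and Benjamini-Hochberg adjustment over the 14585 genes that reached 10 normalized counts in 2 or more libraries. A gene rose or fell when its adjusted p was under 0.05. The scripts were tested on simulated data. Samples were grouped by the labels, and 16 comparisons were made. The libraries of a group share replicate numbers with other groups, which was tested as a block. Alternatives covered the pseudocount (0.5 and 5), the filter, the scaling, the libraries in the fit, the variance trend, the deposited scale, and each library left out. Intervals from depth cover counting error only. The 6 genes and all gene lists were chosen with earlier results of these data known. Genes named are the 6 members, the gene lists stated, and the 2 genes most like each member.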

Additional observations from a re-analysis of the deposited data

Results flagged for a closer look

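Results are listed here because the change from WT differed between the KO clones by a direct test (limma, adjusted over all tested genes). JUP was 4827 and 4656 normalized counts in KO1 and 7704 and 6798 in KO2, a log2 difference of -0.61 (adjusted p = 0.000375). PKP2 was 92.8 and 103 normalized counts in KO1 and 168 and 185 in KO2, a log2 difference of -0.85 (adjusted p = 0.00206). Each clone is 1 line, and the part of differences between single clones was not tested.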

How the results depend on the processing

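Of 64 log2 changes (4 genes in 16 comparisons), between 47 and 64 kept both direction and side of the threshold under each alternative other than leaving out a library. When the fit held only the groups compared, 17 lost their call and none reversed. Replicate numbers did not pair the libraries, since the correlations of same-numbered libraries over 55 pairs of groups ran from -0.082 to 0.047. With the replicate block all 64 were the same, and the counts of genes passing stayed at 4 for TGF-β, KO1 and KO2, for example.

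The number of the 4 tested genes that passed changed as follows. For TGF-β against WT it went from 4 to 0 with only the groups compared, and ranged from 1 to 4 when 1 library was left out. For KO1 against WT it went from 4 to 2 with equal library totals, to 2 after quantile normalization, and to 2 with only the groups compared. For KO2 against WT it went from 4 to 3 with only the groups compared. With only the groups compared it also went from 2 to 0 for KO1 against KO2, from 2 to 0 for the group labelled KO2 rescue against KO2, from 2 to 1 for that group against WT, from 2 to 0 for Rescue1 and from 1 to 0 for Rescue2 against WT eGFP, and from 2 to 0 for WT eGFP against WT. Leaving out 1 library gave 1 to 2 for the group labelled KO2 rescue against KO2, for Rescue1 and Rescue2 against WT eGFP, and for WT eGFP against WT. Rescue1 against WT eGFP gave 1 with no filter and 1 without the variance trend. WT eGFP against WT gave 1 with a pseudocount of 5 and 1 with no filter. The cause was not tested, except that fits of the groups compared alone rest on 4 libraries.

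The changes whose direction reversed had not passed the test, apart from JUP in KO1 against WT at -0.072 with equal totals. JUP in Rescue2 against WT eGFP turned to 0.06 with equal totals and 0.042 after quantile normalization, and in PRRX1 to 0.014 after quantile normalization. DSC2 against the KO mean turned to -0.008 in Rescue1 and -0.01 in Rescue2 on the deposited scale, and ranged from -0.297 to 0.473 and from -0.323 to 0.448 with 1 library left out. Between Rescue1 and Rescue2 it turned to -0.014 with equal totals and ranged from -0.249 to 0.299. Against WT eGFP with 1 library left out, DSP ranged from -0.503 to 0.366 in SOX2, from -0.83 to 0.038 in OCT2 and from -0.583 to 0.286 in PRRX1. DSC2 likewise ranged from -1.505 to 0.592 in SOX2 and from -2.037 to 0.06 in PRRX1, and JUP from -0.142 to 0.096 in PRRX1.

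Equal totals moved the share of higher genes among all genes that passed from 47.9% to 23.3% for TGF-β, from 47.8% to 26.2% for KO1, from 52.8% to 35.3% for KO2, from 48.7% to 72.6% for Rescue1 and from 49.0% to 75.1% for Rescue2. With about 1 read per normalized count, PKP3, DSG2 and the low DSC2 values rest on few reads.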

Other observations

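FGD4, which lies within 500 kb of PKP2 on chromosome 12, was among the genes most like PKP2 across groups, and was looked at because of this after its values were seen. It was lower than WT in KO1 (log2 change -1.29, adjusted p = 0.000306) and in KO2 (-0.72, adjusted p = 0.0252), and higher than the KO mean in Rescue1 (0.84, adjusted p = 0.00316) and Rescue2 (0.76, adjusted p = 0.00603). Of the 6 tested genes within 500 kb of PKP2, 2 fell and 0 rose in KO1, and 1 fell and 1 rose in KO2, near the 39.8% and 28.9% of all tested genes that passed. Of the 9 tested genes within the same distance of DSP, 2 rose and 2 fell in KO1, also near 39.8%.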
